A study of Rattus norvegicus with 12 samples.

Results

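The complement system was examined in cultured rat cells through 9 of its components and regulators, namely C7, C3, C2, C1s, C1r, Cfb, Cfi, Serping1 and Cd55. They were taken by symbol from the gene count table, where they occupied 10 of 32545 rows, because the symbol C2 stood on 2 rows. The members were chosen by their levels in these libraries across the 4 groups, so their levels and fold changes are given as a description, without tests. RNA-seq counted reads per gene in 12 libraries from 4 groups, each with 3 replicates that the design text calls biological. The labels do not say whether replicates were separate cultures or derivations, so the spread may be partly technical.

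The ECCMM group held GS cells grown in CMM medium to which EGM2 solution was added, labelled as differentiation toward cardiomyocytes and endothelial cells. The CMM group held GS cells grown in CMM medium alone, labelled as differentiation toward cardiomyocytes. The GS group held the undifferentiated cells, immortalized rat cardiac fibroblasts made to overexpress Sall4 and Gata4 from virus. The RCF group held the untreated wild-type parental fibroblasts from rat heart, which served as controls. The labels used here give no viral vector or promoter, no number of clones, no strain, age or passage, and no GS culture kept for the same time as the differentiated ones. GS against RCF therefore joins both factors, immortalization and time in culture, which cannot be told apart. ECCMM and CMM were both made from GS cells and carry the same 2 factors.

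Total counts ran from 16255682 to 23117864 per library, and 16044 to 16707 genes had at least 1 count. Sall4 had 69.6 ± 2.55 CPM in ECCMM, 225 ± 4.66 in CMM and 246 ± 8.59 in GS, against 0 in every RCF library (SD, n = 3 each). Gata4 had 285 ± 3.89 CPM in ECCMM, 495 ± 6.97 in CMM and 595 ± 7.21 in GS, against 206 ± 3.43 in RCF. CPM are counts per 1000000 counts of a library, scaled with TMM factors, and SD and n keep this meaning below. Of 11 cardiac fibroblast markers, all 11 averaged at least 1 CPM in RCF, against 9 in ECCMM, 9 in CMM and 10 in GS. The markers did not move together between GS and RCF. Tcf21, a transcription factor of cardiac fibroblasts, had 0 CPM in ECCMM, 0.083 ± 0.105 in CMM and 0.395 ± 0.253 in GS, against 18.5 ± 0.583 in RCF. Dcn was likewise lower, at 1.0 ± 0.533 CPM in GS and 32.8 ± 1.55 in RCF. Pdgfra was higher, at 687 ± 31.8 CPM in GS and 97.3 ± 5.17 in RCF. So was Lum, at 116 ± 3.07 CPM in GS and 11.2 ± 1.29 in RCF.

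Complement is a cascade of secreted proteases and adaptor proteins that marks particles for uptake and can end in a membrane pore. The classical route starts when C1q engages the proteases C1r and C1s, which cleave C4 and C2. The alternative route runs through factor B, encoded by Cfb. Both routes cleave C3, the central component, and the terminal components that include C6 and C7 then assemble the pore. Serping1 encodes C1 inhibitor, which blocks C1r and C1s. Cd55 encodes decay accelerating factor, a membrane protein that disassembles the C3-cleaving enzymes, and Cfi encodes factor I, a protease that inactivates C3b and C4b. The liver supplies most complement of plasma, and fibroblasts and macrophages also make components locally.

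Promoter sequences are shown for C1r and C3, which stood among the members with the highest levels, and for Cfi. The CMM libraries of Cfi stood below those of ECCMM and GS, as did those of C1r, C3 and Cd55. The promoter of Cd55, which also had an entry, is not printed. RefSeq's table for GRCr8 held an entry for 4 of the 9 members, with 250 bases before and 50 bases after the start site of the gene. No entry was found for C7, C2, C1s, Cfb and Serping1. The C1r stretch is chr4:159098763-159099062 on the plus strand, the C3 stretch is chr9:2201290-2201589 on the minus strand, and the Cfi stretch is chr2:221063066-221063365 on the plus strand. These are GRCr8 positions, whereas gene positions below are those of the count table, which fit Rnor_6.0. Each is written 5′ to 3′ on the gene's strand, with a match to the C/EBP motif in capitals.
C1r: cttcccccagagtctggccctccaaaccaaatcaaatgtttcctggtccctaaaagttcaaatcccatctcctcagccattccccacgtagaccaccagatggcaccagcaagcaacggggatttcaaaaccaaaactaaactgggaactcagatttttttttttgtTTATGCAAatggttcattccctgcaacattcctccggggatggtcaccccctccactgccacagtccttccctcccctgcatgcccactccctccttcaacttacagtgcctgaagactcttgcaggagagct
C3: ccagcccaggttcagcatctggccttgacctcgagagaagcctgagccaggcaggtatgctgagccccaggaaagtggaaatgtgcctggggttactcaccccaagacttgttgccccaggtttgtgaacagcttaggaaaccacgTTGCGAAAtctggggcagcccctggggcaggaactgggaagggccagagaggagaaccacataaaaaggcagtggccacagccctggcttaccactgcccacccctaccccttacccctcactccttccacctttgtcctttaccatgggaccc
Cfi: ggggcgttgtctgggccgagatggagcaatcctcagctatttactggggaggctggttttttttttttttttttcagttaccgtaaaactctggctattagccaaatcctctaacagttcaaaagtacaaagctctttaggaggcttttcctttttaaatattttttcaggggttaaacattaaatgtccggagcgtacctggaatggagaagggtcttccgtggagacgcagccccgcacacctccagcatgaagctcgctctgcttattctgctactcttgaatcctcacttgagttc

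The windows were searched on both strands for 5 motifs linked to inducible genes. These were GAS (TTCNNNGAA), the ISRE consensus, the NF-kB consensus, C/EBP (TTGCNNAA), and AGATAA or the same with T first for GATA factors. No 2 matches overlapped. C3 held 1 C/EBP match, TTGCGAAA, at position -104 from the start site, and C1r held 1, TTATGCAA, which is the motif read on the other strand, at -83. Cfi and Cd55 held none of the 5. Across all 33469 promoters in the table, 10.6% held a C/EBP match, 18.9% a GATA match, 8.87% a GAS match, 7.51% an NF-kB match and 3.92% an ISRE match. A match is a run of letters, not a shown binding site.

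C1r lies on chromosome 4 at 157125998-157136829, plus strand (ENSRNOG00000011796), and had the least uneven levels of any member outside CMM. It stood at 1188, 1195 and 1209.6 CPM in the ECCMM libraries, 266, 255 and 252 in CMM, 1132, 1116 and 1139 in GS, and 1068, 1064 and 1078 in RCF. The 3 CMM libraries were far below the other 9, which sat close together without overlap between groups. C1r was 4.38-fold lower in CMM than in GS, a log2 fold change of -2.13 ± 0.0268 (SE from the edgeR fit, as below). In ECCMM against GS the difference was 0.08 ± 0.0253, and in GS against RCF it was likewise 0.08 ± 0.0253. The last of these turned to -0.02 when libraries were scaled by their totals alone, so GS and RCF were not ordered for C1r.

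C1s, the neighbouring protease gene on chromosome 4 at 157143592-157155609, minus strand (ENSRNOG00000011971), spread much more widely. It had 1229, 1232 and 1259 CPM in ECCMM, 129, 128 and 126 in CMM, 1362, 1352 and 1359 in GS, and 364, 345 and 351 in RCF. The groups did not overlap, with GS highest, ECCMM just under it, and CMM lowest. C1s was 3.85-fold higher in GS than in RCF (1.94 ± 0.0271 on the log2 scale), 10.6-fold lower in CMM than in GS (-3.41 ± 0.0292) and 9.71-fold higher in ECCMM than in CMM (3.28 ± 0.029). In ECCMM against GS the difference was small, -0.13 ± 0.0259.

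C1r and C1s act as partners in one complex, and their ratio within a library does not depend on scaling. Per kilobase of gene length, the ratio of C1s to C1r was 0.949, 0.946 and 0.955 in the ECCMM libraries and 0.445, 0.463 and 0.457 in CMM. It was 1.1, 1.11 and 1.09 in GS and 0.313, 0.297 and 0.299 in RCF. The 4 groups did not overlap, and the ratio was near even in GS and ECCMM and tilted to C1r in CMM and RCF. The genes on either side varied less than C1s: Lpcat3, a phospholipid acyltransferase gene, had 129 ± 1.34 CPM in ECCMM, 110.5 ± 3.51 in CMM, 136 ± 1.92 in GS and 106 ± 2.58 in RCF. C1rl, a C1r-like protease gene on the other side and no member, had 17.1 ± 1.85 CPM in ECCMM, 4.08 ± 0.517 in CMM, 10.7 ± 0.847 in GS and 23.9 ± 1.36 in RCF.

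**Figure D1:**
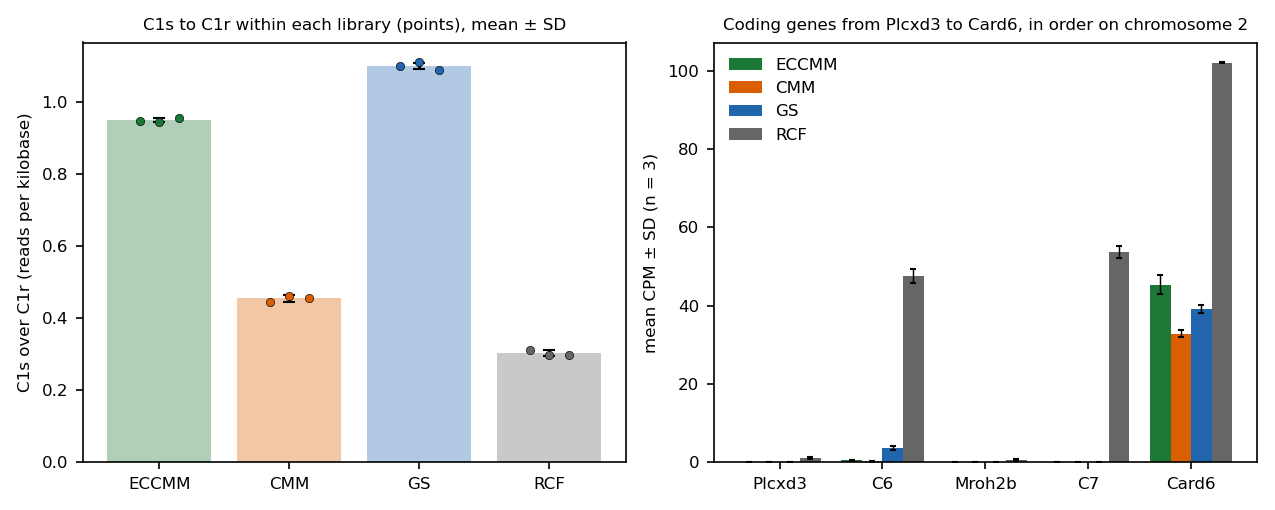
Left, the ratio of C1s to C1r per kilobase in each library (points), with group mean (bar) and SD (n = 3); it is 0.95 in ECCMM, 0.455 in CMM, 1.1 in GS and 0.303 in RCF. Right, mean CPM with SD (n = 3) of the protein coding genes from Plcxd3 to Card6 in their order on chromosome 2, with groups ECCMM, CMM, GS and RCF side by side; C6 and C7 stand at 47.6 and 53.7 CPM in RCF and at 3.66 or less in the other groups, while Card6 is present in all 4.

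C3 lies on chromosome 9 at 9721105-9747167, plus strand (ENSRNOG00000046834). Its levels were 515, 521 and 531 CPM in ECCMM, 148, 140 and 138 in CMM, 1069, 1095 and 1032 in GS, and 93.8, 88.7 and 92.5 in RCF. Among members with counts in every group, it was alone in having RCF as the lowest group, and no groups overlapped. C3 was 11.6-fold higher in GS than in RCF (3.54 ± 0.0349). It was 7.5-fold lower in CMM than in GS (-2.91 ± 0.0337) and 2.04-fold lower in ECCMM than in GS (-1.03 ± 0.0311). Even so, CMM stood 1.55-fold above RCF (0.63 ± 0.034).

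C2, the component that C1s cleaves to form the classical C3-cleaving enzyme, was near the detection limit and is uncertain. The row ENSRNOG00000051235, on chromosome 20 at 4542340-4561152, minus strand, carries the C2 description. It had 0.933, 1.44 and 1.15 CPM in ECCMM, 1.05, 0.756 and 1.33 in CMM, 3.16, 4.68 and 4.57 in GS, and 4.09, 1.9 and 3.31 in RCF. GS and RCF overlapped, as did ECCMM and CMM, while both differentiated groups stood below the other pair. C2 was 3.95-fold lower in CMM than in GS (-1.98 ± 0.325) and 3.48-fold lower in ECCMM than in GS (-1.8 ± 0.32).

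The second C2 row, ENSRNOG00000051158 at 4536203-4542947 on the same strand, is described in the table as complement factor B. It averaged 0.252 ± 0.219 CPM in ECCMM, 0.103 ± 0.0474 in CMM, 1.27 ± 0.504 in GS and 0.521 ± 0.111 in RCF. Its CMM value rests on 6 counts in 3 libraries, so no fold is given. The row named Cfb, ENSRNOG00000000419 at 4536263-4561062, had 0 counts in all 12 libraries. It overlaps the first C2 row by 18723 bases and the second by 6685, on the same strand. How reads of overlapping genes were assigned is not given in the sources used here, so the 0 of Cfb is no sign that factor B was absent, and levels of C2 and factor B cannot be told apart.

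Cfi, the gene of the C3b-inactivating protease, lies on chromosome 2 at 235264219-235305781, plus strand (ENSRNOG00000053400). It had 7.15, 7.92 and 6.94 CPM in ECCMM, 0.238, 0.151 and 0.29 in CMM, 2.98, 3.01 and 4.38 in GS, and 0.295, 0.256 and 0.52 in RCF. ECCMM was highest and GS next, while CMM and RCF overlapped at the bottom with totals of 13 and 23 counts. Cfi was 9.48-fold higher in GS than in RCF (3.24 ± 0.319), 15-fold lower in CMM than in GS (-3.9 ± 0.347) and 2.13-fold higher in ECCMM than in GS (1.09 ± 0.256). Between ECCMM and CMM it had the widest distance of any member, 31.9-fold (4.99 ± 0.342).

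Serping1, the C1 inhibitor gene, lies on chromosome 3 at 72161189-72171078, minus strand (ENSRNOG00000007457). Its levels were 22.9, 20.8 and 20.7 CPM in ECCMM, 2.04, 2.57 and 2.26 in CMM, 13.9, 16 and 14.9 in GS, and 55.7, 53.7 and 55.4 in RCF. Groups did not overlap, and the order was RCF, ECCMM, GS and CMM. In GS, Serping1 stood 3.68-fold below RCF (-1.88 ± 0.0842) and 6.51-fold lower in CMM than in GS (-2.7 ± 0.112), which placed CMM 23.9-fold below RCF (-4.58 ± 0.106). In ECCMM it was 1.43-fold higher than in GS (0.52 ± 0.0861) and 9.34-fold higher than in CMM (3.22 ± 0.109).

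Cd55, the membrane regulator, lies on chromosome 13 at 47126741-47154292, minus strand (ENSRNOG00000003927), and followed the same order as Serping1 over a narrower range. It had 44.6, 46.5 and 45.4 CPM in ECCMM, 20.1, 18 and 20.2 in CMM, 25.6, 23 and 27.3 in GS, and 124, 122 and 133 in RCF. GS was 5.01-fold below RCF (-2.32 ± 0.0638). CMM was only 1.3-fold below GS (-0.38 ± 0.0711), the smallest distance of any member in that comparison. ECCMM was 1.8-fold above GS (0.85 ± 0.0657) and 2.34-fold above CMM (1.23 ± 0.0672).

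Between GS and RCF, C3 and Cd55 lay in opposite directions, while C3 and Cfi lay in the same one. Per kilobase, the ratio of C3 to Cd55 was 6.88, 6.68 and 6.98 in ECCMM, 4.4, 4.64 and 4.07 in CMM, 24.9, 28.4 and 22.5 in GS, and 0.45, 0.432 and 0.413 in RCF. C3 thus outnumbered Cd55 in all 9 libraries of the GS lineage and was the lesser of the pair in all 3 RCF libraries. The ratio of C3 to Cfi was 28.8 ± 2.16 in ECCMM, 272 ± 92.4 in CMM, 129 ± 29.2 in GS and 113 ± 36.3 in RCF. The values of GS and RCF overlapped in that ratio, and ECCMM was the lowest group.

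C7, a terminal component, lies on chromosome 2 at 54709138-54777729, minus strand (ENSRNOG00000061379). It had 0 counts in each of the 9 libraries of ECCMM, CMM and GS, against 55.4, 52.6 and 53.2 CPM in RCF, from 1312, 1025 and 1125 counts. Against a floor of 3 counts per library, C7 was at least 363-fold lower in ECCMM, at least 345-fold lower in CMM and at least 320-fold lower in GS, each relative to RCF. In these bulk libraries, fewer cells of a type and less RNA per cell cannot be told apart. Lyz2, the lysozyme gene of macrophages, behaved much like C7, with 0 CPM in ECCMM and CMM and 0.348 ± 0.194 in GS, against 55.8 ± 2.84 in RCF. Genes on other marker lists went both ways between RCF and the other groups. Lum, of the fibroblast list, averaged 92.4 CPM in ECCMM, 15.8 in CMM and 116 in GS, against 11.2 in RCF. Krt19, of the mesothelial list, averaged 7.41 CPM in ECCMM, 20.3 in CMM and 25.4 in GS, against 0.415 in RCF. Others were far lower outside RCF. Dcn, of the fibroblast list, averaged 0.418 CPM in ECCMM, 0.0703 in CMM and 1.0 in GS, against 32.8 in RCF. Aldh1a2, of the mesothelial list, averaged 0 CPM in ECCMM, 4.54 in CMM and 1.62 in GS, against 49.3 in RCF. The summed level of 13 macrophage markers ran from 32.2 to 34.2 CPM in ECCMM, 16.5 to 17.5 in CMM and 23.2 to 26.9 in GS, against 105 to 112 in RCF. Most of the sum in the GS-derived groups was Cd14, the gene of a lipopolysaccharide co-receptor, at 29.4 ± 1.11 CPM in ECCMM, 14.1 ± 0.898 in CMM and 23.2 ± 2.3 in GS, against 17.3 ± 0.767 in RCF, so that Cd14 was higher in ECCMM and GS than in RCF. At 0 in all libraries of a group were 8 of the 13 in ECCMM, 9 in CMM and 8 in GS, against 1 in RCF, and Adgre1, Tyrobp, Fcgr3a and the 3 C1q genes were among those at 0 in each GS-derived group. The C1q genes averaged at most 0.241 CPM in RCF. Cd68 kept 3.41, 1.5 and 0.784 CPM in ECCMM, CMM and GS, against 14.4 in RCF. Csf1r kept 0.337, 1.52 and 0.319 CPM in ECCMM, CMM and GS, against 3.06 in RCF. The part of these markers in the C7 levels was not tested.

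C6, the other terminal component gene of this stretch and no member, lies on chromosome 2 at 54466280-54533797, plus strand, on the other side of Mroh2b. It had 0.363, 0.569 and 0.574 CPM in ECCMM, 0.285, 0.202 and 0.348 in CMM, 3.16, 4.34 and 3.47 in GS, and 49.3, 47.6 and 45.9 in RCF. In GS, C6 stood 13-fold below RCF (-3.71 ± 0.135, adjusted p = 1.04e-20, edgeR quasi-likelihood test with Benjamini-Hochberg adjustment over 14399 genes) and a further 13-fold lower in CMM than in GS (-3.7 ± 0.222, adjusted p = 4.36e-15). Unlike C7, it kept counts in every library. The gene beyond C7, Card6, had 45.4 ± 2.46 CPM in ECCMM, 32.9 ± 0.926 in CMM and 39.2 ± 1.02 in GS, against 102 ± 0.115 in RCF. Mroh2b and Plcxd3 were at 0 in all GS-derived libraries and averaged 0.649 ± 0.315 and 1.16 ± 0.19 CPM in RCF. RefSeq's GRCr8 promoter of C6 held a C/EBP match, TTTTGCAA, at -176 and a GATA match, TTATCT, at -90.

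**Figure D2:**
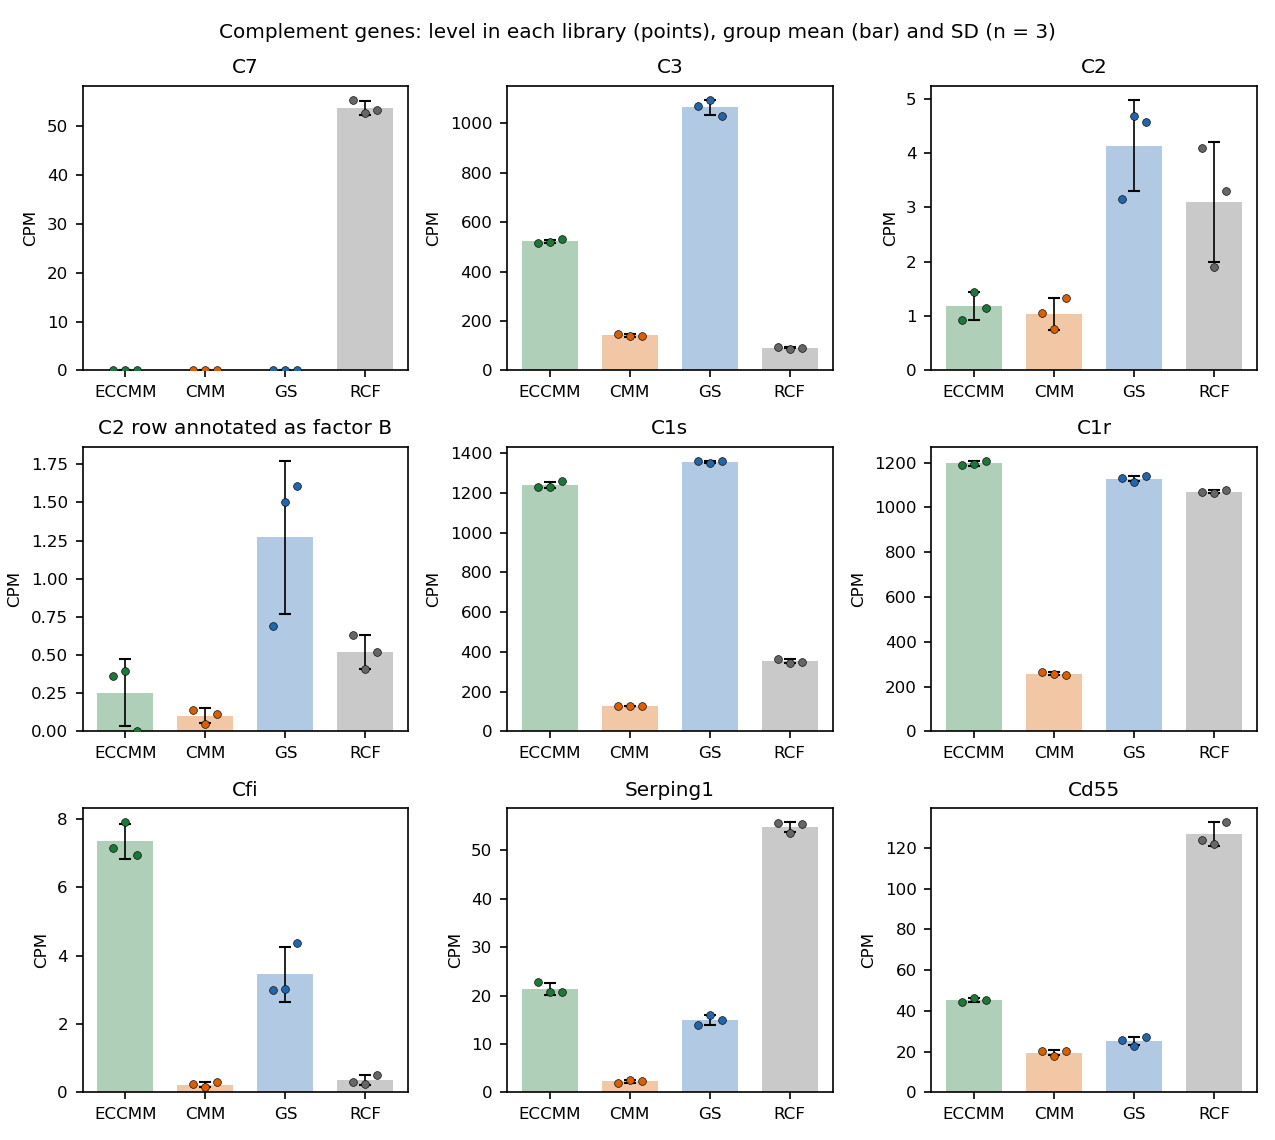
Level of each complement row with counts, in CPM, for ECCMM, CMM, GS and RCF, with 3 libraries as points, the mean as a bar and the SD as a line; each panel has its own axis from 0. CMM has the lowest mean in 7 of the 8 panels without C7, and C7 is present in RCF alone. The share of all tested genes with CMM lowest was not computed. In both C2 panels the CMM libraries overlap those of ECCMM, and for Cfi those of RCF.

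Among the 8 rows with counts other than C7, CMM had the lowest mean for 7, and RCF had it for C3. For both C2 rows the CMM libraries overlapped those of ECCMM, and for Cfi those of RCF. How many of all tested genes had CMM as the lowest group was not computed, so nothing is read from the 7. Summed per kilobase over the members, the level was 974 ± 10.4 CPM per kilobase in ECCMM, 171 ± 4.08 in CMM, 1082 ± 1.83 in GS and 614 ± 7.32 in RCF. C1r and C1s made up most of this sum in every group. C1s took 42.2% in ECCMM, 24.8% in CMM and 41.6% in GS, against 19.1% in RCF, and C1r took 44.4%, 54.5% and 37.7% in ECCMM, CMM and GS, against 62.9% in RCF. C3 took 10.3% in ECCMM, 16% in CMM and 19% in GS, against 2.88% in RCF. The membrane regulator Cd55 took 1.51% in ECCMM, 3.68% in CMM and 0.756% in GS, against 6.67% in RCF. Of the sum in RCF, 3.45% was C7.

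Per comparison, the 9 tested rows were counted by whether the 3 libraries of one group all lay above or all below the 3 of the other. The rule chose members on these levels, so nothing is read from these counts, and the shares of all 14399 tested genes are given beside them. C7 passed the count filter only through RCF, and the C2 row described as factor B only through GS. Both rows are in the counts and medians, and their direction against that group is no result. In GS against RCF, 5 rows were higher and 3 lower, beside 36.0% and 38.2% of all tested genes. In CMM against GS, 0 were higher and 8 lower, beside 33.5% and 33.5%. In ECCMM against GS, 4 were higher and 4 lower, beside 35.3% and 35.0%, and in ECCMM against CMM, 6 were higher and 0 lower, beside 34.0% and 33.8%. In CMM against RCF, 1 was higher and 7 lower, beside 39.0% and 38.8%, and in ECCMM against RCF, 4 were higher and 5 lower, beside 39.0% and 37.4%. Median log2 fold changes of the rows with counts were 0.41 in GS against RCF, -2.8 in CMM against GS, -0.02 in ECCMM against GS and 2.05 in ECCMM against CMM, with medians over all tested genes between -0.03 and 0. CMM and ECCMM share the GS libraries as their comparison, and GS, CMM and ECCMM share RCF.

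**Figure D3:**
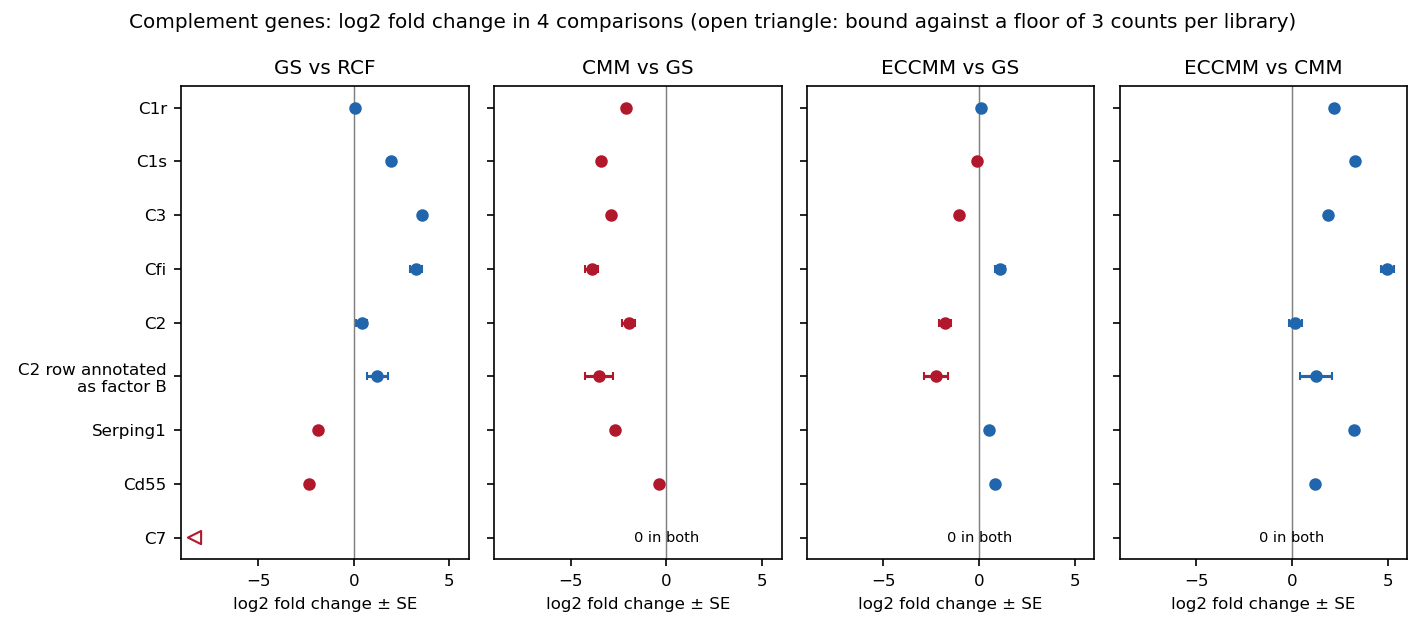
Log2 fold change with SE for each complement row in GS against RCF, CMM against GS, ECCMM against GS and ECCMM against CMM, blue above 0 and red below it; an open triangle marks a bound against 3 counts per library. In CMM against GS, C1r, C1s, C3, Cfi, both C2 rows, Serping1 and Cd55 lie below 0. In ECCMM against GS, C1r, Cfi, Serping1 and Cd55 lie above 0, and C1s, C3 and both C2 rows below it. The members were chosen on these levels, so nothing is read from the number on each side. The C2 row described as factor B passed the count filter only through GS, so its direction against GS is no result.

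The rest of the complement system was described from a list of 41 other symbols on 42 rows, of which 20 rows were tested and 22 had too few counts. Of the 22, 8 had no count in any library. The C1q genes C1qa, C1qb and C1qc, whose product activates C1r, were at 0 in all ECCMM, CMM and GS libraries and averaged 0.241 ± 0.192, 0.0281 ± 0.0487 and 0.0785 ± 0.0551 CPM in RCF. All calls on the list come from edgeR's quasi-likelihood test at an adjusted p of 0.05 over all tested genes.

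In GS against RCF, 4 of the 20 rose, 12 fell and 4 did not pass, beside 35.0% and 36.3% of all tested genes. The median log2 fold change of the list was -0.94, against -0.03 over all tested genes. Of the 12, 4 (C5ar1, Itgam, Itgax and Itgb2) passed the count filter only through their RCF libraries and so had to be lower outside RCF. Without them, 4 of 16 rose and 8 fell, with a median of -0.57. Masp1, a protease gene of the lectin route, rose to 33.9 ± 4.52 CPM in GS, against 4.24 ± 0.772 in RCF (log2 fold change 3.01 ± 0.125, adjusted p = 1.76e-16 by edgeR). Clu, whose product clusterin binds terminal components, had 155 ± 5.27 CPM in GS and 97.3 ± 1.77 in RCF, and C5ar2, a C5a receptor gene, had 11.3 ± 1.38 CPM in GS and 6.89 ± 0.867 in RCF. Both also rose.

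Among the 12 that fell, Cfp, the gene of properdin, which stabilizes the alternative C3-cleaving enzyme, had 0.635 ± 0.114 CPM in GS, against 5.88 ± 0.38 in RCF (log2 fold change -3.21 ± 0.253, adjusted p = 1.71e-12 by edgeR). The other membrane regulators also fell: Cr1l had 41.4 ± 3.7 CPM in GS and 104 ± 2.49 in RCF, Cd59 had 38.1 ± 1.47 CPM in GS and 50.9 ± 1.86 in RCF, and Cd46 had 0.838 ± 0.189 CPM in GS and 2.05 ± 0.3 in RCF. C4a fell to 3.31 ± 0.47 CPM in GS, against 9.27 ± 2.2 in RCF, but its row overlaps C4b and many other genes, so its level is uncertain. Masp2, a second lectin route protease gene, and C1rl also fell. The 3 integrin genes of the leukocyte complement receptors, which the count filter kept through RCF alone, are given as levels. Itgb2 had 0 CPM in GS and 7.1 ± 0.88 in RCF, Itgam 0.0367 ± 0.0331 CPM in GS and 2.6 ± 0.965 in RCF, and Itgax 0.414 ± 0.0802 CPM in GS and 2.32 ± 0.287 in RCF. Itgam and Itgax overlap on one strand. The summed macrophage markers given with C7 were likewise lower in GS, with Cd14 as an exception, and their part was not tested.

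In CMM against GS, 4 of the 20 rose and 11 fell, beside 32.0% and 32.3% of all tested genes, with a median of -0.48, or -0.25 with genes at 0 in a group set to their bound. C1rl fell 2.63-fold (-1.39 ± 0.128, adjusted p = 7.8e-11 by edgeR). Cd59 fell 1.4-fold and Clu 1.13-fold. Cfp rose to 3.24 ± 0.13 CPM in CMM, against 0.635 ± 0.114 in GS (2.35 ± 0.256, adjusted p = 2.53e-09), and Masp2 rose to 5.92 ± 0.48 CPM in CMM, against 2.54 ± 0.146 in GS (1.22 ± 0.195, adjusted p = 2.7e-06). C5ar2 rose 1.33-fold. The calls of Masp1 (-0.25), Cr1l (0.2) and Colec11 (-1.79) were each lost when single libraries were left out. Colec11, a lectin gene at 0.18 CPM in CMM and 0.618 in GS, rested on 10 counts in CMM and 34 in GS.

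In ECCMM against GS, 8 of the 20 rose and 4 fell, beside 33.3% and 33.7%, with a median of -0.01. Among the regulator genes that rose were Clu, to 299 ± 3.04 CPM in ECCMM, against 155 ± 5.27 in GS (0.95 ± 0.0349, adjusted p = 1.67e-20 by edgeR), Cr1l, to 75 ± 8.75 in ECCMM, against 41.4 ± 3.7 in GS (0.86 ± 0.0741, adjusted p = 1.16e-09), Cd59, to 58.5 ± 2.75 in ECCMM, against 38.1 ± 1.47 in GS (0.62 ± 0.0634, adjusted p = 6.79e-10), and Cd46, to 1.54 ± 0.269 in ECCMM, against 0.838 ± 0.189 in GS. The call of Cd46 (adjusted p = 0.0344) was lost when single libraries were left out. Cfp rose 7.13-fold (2.83 ± 0.254, adjusted p = 3.71e-11), Masp2 2.63-fold, C1rl 1.6-fold and C5ar2 1.64-fold, while C6 fell 7.14-fold (-2.84 ± 0.196, adjusted p = 9.88e-14).

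ECCMM and CMM differ in the labels by the EGM2 solution alone. Their levels of the overexpressed genes also differed. Sall4 had 69.6 CPM in ECCMM and 225 in CMM, and Gata4 had 285 in ECCMM and 495 in CMM. The part of these levels was not tested. Between ECCMM and CMM, 10 of the 20 rose in ECCMM and 0 fell, beside 32.1% and 31.5% of all tested genes. The median was 0.67, against 0 over all tested genes. At an unadjusted p under 0.05 the number that fell was likewise 0, by edgeR, by limma-voom and by DESeq2. The 0 did not hold in each setting: with no filter on low counts Cpn1, a carboxypeptidase N gene with 2 counts in ECCMM and 28 in CMM, was called lower by edgeR (adjusted p = 0.0085). Itgax, with 0 counts in ECCMM and 3 in CMM, was called lower without CMM replicate 2 (adjusted p = 0.043) or CMM replicate 3 (adjusted p = 0.0482). C1rl rose 4.19-fold (2.07 ± 0.126, adjusted p = 5.69e-15 by edgeR), Clu 2.19-fold (1.13 ± 0.0351, adjusted p = 2.77e-22), Cd59 2.15-fold (1.1 ± 0.0649, adjusted p = 2.58e-15) and Cr1l 1.58-fold (0.66 ± 0.0728, adjusted p = 6.45e-08). C4a and C4b, genes of the component that C1s cleaves, were called higher at low levels. C4a had 2.14 ± 0.454 CPM in ECCMM and 1.22 ± 0.0136 in CMM (adjusted p = 0.00651 by edgeR), a call lost by limma-voom (adjusted p = 0.0834) and without ECCMM replicate 3 (adjusted p = 0.0531). C4b had 0.613 ± 0.216 CPM in ECCMM and 0.101 ± 0.047 in CMM, from 38 counts in ECCMM and 6 in CMM. C8g, a lipocalin subunit gene of C8, had 3.39 ± 0.264 CPM in ECCMM and 3.35 ± 0.516 in CMM and did not pass in any comparison.

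Against the parental cells, 4 of the 20 rose and 14 fell in CMM, beside 38.0% and 37.4%, and 6 rose and 9 fell in ECCMM, beside 37.1% and 35.4%. The medians were -1.07 in CMM and -0.4 in ECCMM. Without the 4 rows kept through RCF alone, 4 of 16 rose and 10 fell in CMM, and 6 rose and 5 fell in ECCMM, where the median was then 0.07. Cd59 was 1.87-fold below RCF in CMM (adjusted p = 1.8e-13 by edgeR) and 1.15-fold above it in ECCMM (adjusted p = 0.0044). Masp1, Clu and C5ar2 were above RCF in both. C6 was 169-fold below RCF in CMM and 93.1-fold below it in ECCMM.

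**Figure D4:**
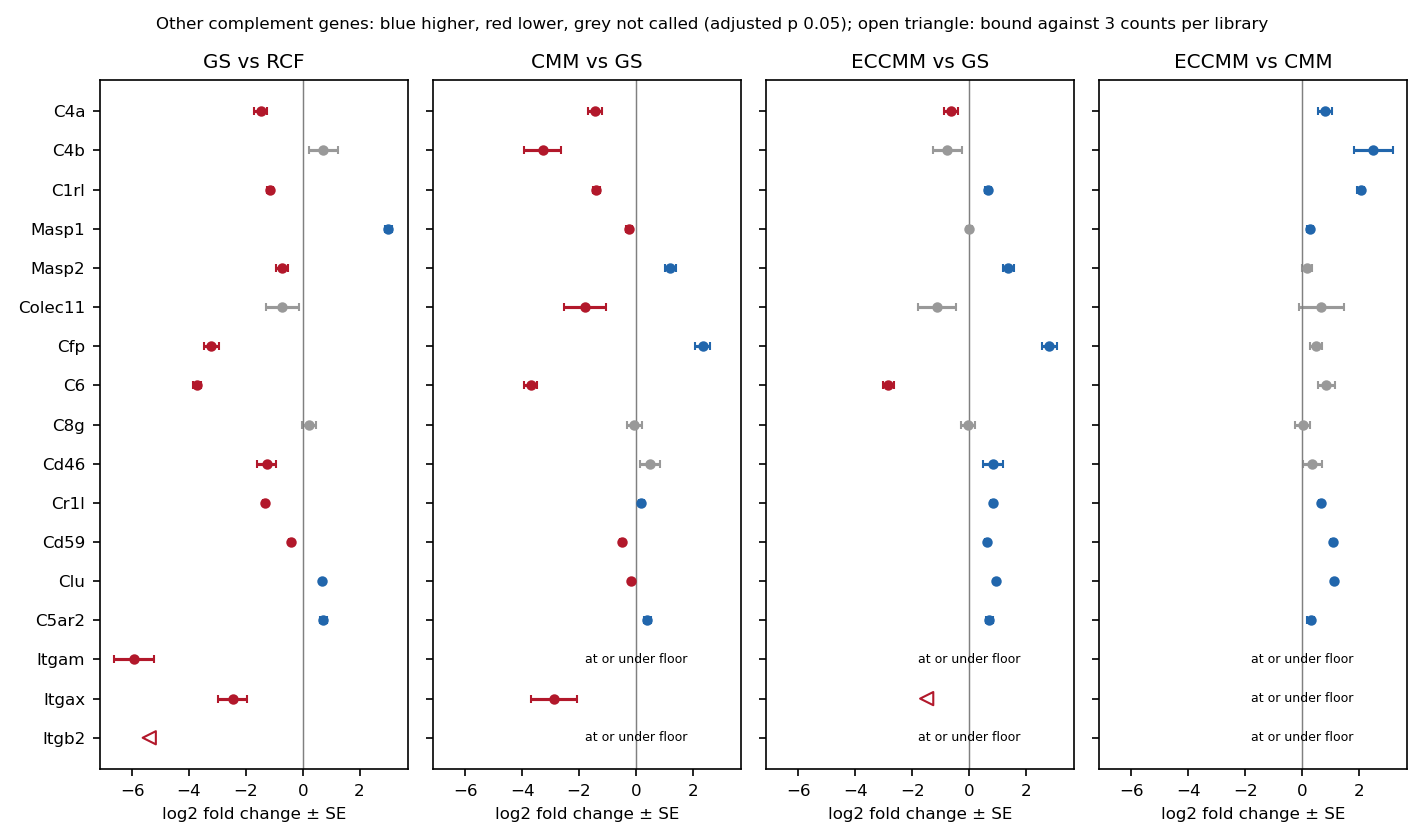
Log2 fold change with SE of other complement genes with at least 1 CPM in a group, in GS against RCF, CMM against GS, ECCMM against GS and ECCMM against CMM; blue points rose, red points fell and grey points did not pass an adjusted p of 0.05, and an open triangle marks a bound. Cfp, the properdin gene, lies left of 0 in GS against RCF and right of it in CMM against GS and ECCMM against GS.

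Several complement genes are known to respond to inflammatory cytokines through C/EBP, NF-kB and STAT factors. A list of 24 symbols from these pathways, on 25 rows, was therefore read beside them, and 20 rows were tested. The list also holds the inhibitor genes Socs3 and Nfkbia, so the numbers that rose or fell do not measure inducing signal. In GS against RCF, 7 rose and 10 fell, beside 35.0% and 36.3% of all tested genes, with a median log2 fold change of -0.15 beside -0.03 over all tested genes. Il1b, a cytokine gene among those that fell, passed the count filter only through RCF and so had to be lower outside it. Without Il1b, 7 of 19 rose and 9 fell, with a median of -0.08. Il6, an inflammatory cytokine gene, rose to 12.3 ± 0.601 CPM in GS, against 0.958 ± 0.302 in RCF (log2 fold change 3.67 ± 0.262, adjusted p = 1.75e-13 by edgeR). Socs3, a feedback inhibitor of cytokine receptors, rose to 67 ± 2.27 CPM in GS, against 27 ± 0.84 in RCF (log2 fold change 1.31 ± 0.0561, adjusted p = 6.05e-19). Of the 6 receptor genes, 5 fell and Ifngr2 did not pass, at 56.1 CPM in GS and 59.4 in RCF (adjusted p = 0.217). Osmr fell to 92.9 ± 3.24 CPM in GS, against 341 ± 7.49 in RCF (log2 fold change -1.87 ± 0.0548, adjusted p = 5.15e-18), and Il6st to 344 ± 19.3 in GS, against 831 ± 1.92 in RCF (log2 fold change -1.27 ± 0.0327, adjusted p = 1.46e-24).

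In CMM against GS, 0 of the 20 rose and 17 fell, beside 32.0% and 32.3% of all tested genes, with a median of -0.79 beside 0 over all tested genes. At an unadjusted p under 0.05 the number that rose was likewise 0 by edgeR, limma-voom and DESeq2. Cebpb, encoding a C/EBP factor, fell to 59.6 ± 1.22 CPM in CMM, against 418 ± 22.1 in GS (-2.81 ± 0.0407, adjusted p = 1.65e-30 by edgeR). Nfkbiz, encoding a nuclear cofactor of NF-kB, fell to 24.6 ± 0.728 CPM in CMM, against 127 ± 2.17 in GS (-2.36 ± 0.048, adjusted p = 6.51e-27). Osmr fell to 15.3 ± 1.42 CPM in CMM, against 92.9 ± 3.24 in GS (-2.6 ± 0.069, adjusted p = 1.45e-18), and Il6 fell 13-fold (-3.7 ± 0.264, adjusted p = 2.52e-13). Socs3 had 70.7 ± 5.06 CPM in CMM and 67 ± 2.27 in GS and did not pass, though with library totals alone it was called higher (0.14, adjusted p = 0.0201), as it was without CMM replicate 2 (0.14, adjusted p = 0.0224).

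In ECCMM against GS, 3 of the 20 rose and 15 fell, beside 33.3% and 33.7% of all tested genes, with a median of -0.35. Il6 fell to 0.374 ± 0.0536 CPM in ECCMM, against 12.3 ± 0.601 in GS (-5.01 ± 0.294, adjusted p = 1.99e-15 by edgeR), and Cebpb to 109 ± 3.76 in ECCMM, against 418 ± 22.1 in GS (-1.94 ± 0.0385, adjusted p = 2.53e-27). Lif, a cytokine gene of the same family as Il6, fell 2.49-fold (-1.32 ± 0.0688, adjusted p = 1.18e-16), while Socs3 rose to 165 ± 5.27 CPM in ECCMM, against 67 ± 2.27 in GS (1.3 ± 0.0504, adjusted p = 7.18e-20). In the same libraries C1r, Cfi, Serping1 and Cd55 stood above their GS level, and C1s stood 1.1-fold, C3 2.04-fold and C2 3.48-fold below it. The C2 row described as factor B had 16 counts in ECCMM and 66 in GS, and no fold is given for it.

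In ECCMM against CMM, 14 of the 20 rose and 4 fell, beside 32.1% and 31.5% of all tested genes, with a median of 0.58, or 0.49 with genes at 0 in a group set to their bound. Nfkbiz rose to 96.6 ± 0.67 CPM in ECCMM, against 24.6 ± 0.728 in CMM (1.98 ± 0.0482, adjusted p = 6.3e-25 by edgeR), Osmr rose 3.31-fold (1.73 ± 0.0715, adjusted p = 4.08e-15), Socs3 2.33-fold (1.22 ± 0.05, adjusted p = 3.25e-19), and Nfkbia, the NF-kB inhibitor gene, 2.32-fold (1.21 ± 0.0569, adjusted p = 1.13e-17). Against RCF, 2 rose and 16 fell in CMM, beside 38.0% and 37.4% of all tested genes, and 2 rose and 16 fell in ECCMM, beside 37.1% and 35.4%. Without Il1b, which the count filter kept through RCF alone, 2 of 19 rose and 15 fell in CMM, and likewise in ECCMM. One that rose in CMM was Lif, at 45.7 CPM in CMM and 41.4 in RCF (adjusted p = 0.0479 by edgeR), a call lost by DESeq2 (adjusted p = 0.0614), with library totals alone (0.14), with a replicate block (0.0567) and without CMM replicate 1 or 3 or RCF replicate 1 or 3 (0.0826 to 0.26). Osmr was 22.2-fold lower in CMM and 6.69-fold lower in ECCMM than in RCF. Nfkbiz was 5.99-fold lower in CMM and 1.52-fold lower in ECCMM than in RCF. Il6st and Cebpb fell in both, 5.23-fold and 5.38-fold in CMM and 3.46-fold and 2.95-fold in ECCMM. Socs3 rose in both, 2.62-fold in CMM (1.39 ± 0.0557, adjusted p = 7.94e-20 by edgeR) and 6.11-fold in ECCMM (2.61 ± 0.0545, adjusted p = 5.27e-27). The levels of these genes and those of the members were read side by side, and whether one bears on the other was not tested.

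**Figure D5:**
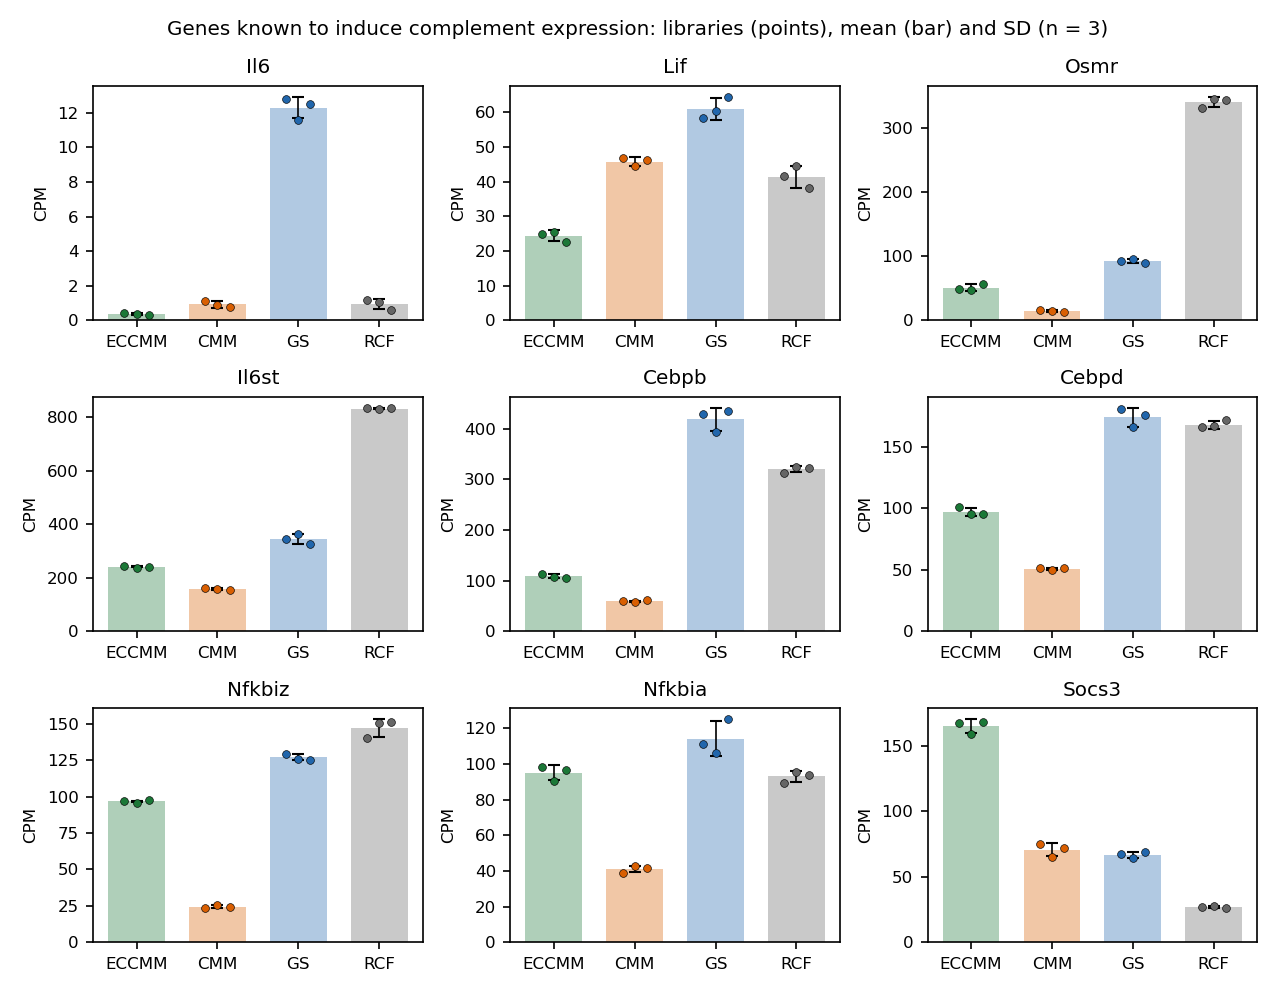
CPM of 9 genes of the inducer list in ECCMM, CMM, GS and RCF, with 3 libraries as points, the mean as a bar and the SD as a line. Each panel has its own axis from 0. Socs3 and Nfkbia, which are on the list, are inhibitor genes. Il6 is highest in GS at 12.3 CPM, Socs3 is highest in ECCMM at 165 CPM, and Osmr and Il6st are highest in RCF.

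Markers of other cell types that make complement were read for the same libraries. The sum of 8 hepatocyte markers was 61.1 to 65.2 CPM in ECCMM, 86 to 87.3 in CMM, 65.1 to 73.4 in GS and 64.2 to 67.3 in RCF. Most of it was Tf, the transferrin gene, at 58.8 ± 1.65, 60.2 ± 0.716 and 67.2 ± 4.45 CPM in ECCMM, CMM and GS, against 65.7 ± 1.66 in RCF. Hnf4a, the gene of a liver transcription factor, averaged 3.16 ± 0.525 CPM in ECCMM, 26 ± 0.575 in CMM and 1.85 ± 0.699 in GS, against 0 in RCF. Alb averaged at most 0.0346 CPM in any group and Fgb was at 0 in all 12 libraries. The part of the hepatocyte and macrophage markers in the levels of C3 and C1s was not tested. The sum of 6 mesothelial markers was 107 to 111 CPM in ECCMM, 41.2 to 44 in CMM, 43.2 to 47.9 in GS and 106 to 113 in RCF. That sum was mostly Msln in ECCMM (99.2 ± 0.84 CPM) and mostly Aldh1a2 and Wt1 in RCF (49.3 ± 2.63 and 37.2 ± 0.951 CPM), and its part in the members' levels was not tested. The 4 endothelial markers found summed to 16.8 to 18.5 CPM in ECCMM, 16 to 21.1 in CMM, 12.7 to 14.9 in GS and 13 to 16.2 in RCF, and Cdh5 and Kdr averaged under 1 CPM in every group.

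For each member, the genes with the most similar pattern were ranked by Pearson's r of log2 CPM over the 12 libraries, among 11264 protein coding genes with at least 5 CPM in a group. With 4 groups of 3, such values mainly compare 4 group means and are descriptive. C7 was matched by Adgre1 (r = 1), a macrophage receptor gene, Mmp12 (0.9999), a macrophage elastase gene, and Maoa (0.9985), a monoamine oxidase gene. C7, Adgre1 and Mmp12 averaged 0 CPM in ECCMM, CMM and GS, so their r only sets RCF against 0 and its height was built in. Maoa, unlike Adgre1 and Mmp12, was well expressed in all groups, at 49.2, 47.4 and 55.5 CPM in ECCMM, CMM and GS, against 1168 in RCF. Among the genes closest to C1s were Sema3f (0.9944) and Gypc (0.9909). For C1r the closest were Fyn (0.995), Vasn (0.994) and Cyb5r3 (0.9927), and for C3 they were Emp2 (0.9922), Chd2 (0.9905) and Rgma (0.9898). Serping1 was matched by Mt2A (0.9966), a metallothionein gene, Gda (0.9958) and Adcy6 (0.9958), and Cd55 by Sbno2 (0.9959), Rtn3 (0.9959) and Cpt1a (0.9953). Cfi was matched by Fjx1 (0.9863), Epn2 (0.9843) and Ptgs1 (0.9833). Ptgs1, a cyclooxygenase gene, had 674 CPM in ECCMM, 28.2 in CMM, 203 in GS and 40.5 in RCF. The 2 C2 rows, at low counts, reached at most 0.9442 with Fam168b and 0.9148 with St7l.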

How the data were processed

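The deposited values are raw read counts per gene, whole numbers, listed with Ensembl gene numbers, symbols, positions and gene lengths; the authors did not normalize them, per the file headers and the values. Per the labels' protocols, RNA came from the RNeasy kit and cDNA libraries from Ovation RNA-seq System v2. The submitters' processing notes name Bowtie 0.12.2 and the builds mm8 and Rnor_6.0, without roles, and the positions fit Rnor_6.0. Which program counted the reads, on which annotation and with which strand setting is not given in the sources used here, so reads of overlapping genes cannot be separated.

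Counts were fitted in edgeR 4.0.16 (R 4.3.3, limma 3.58.1) with TMM scaling, filterByExpr (14399 genes tested, 18146 not) and a robust quasi-likelihood fit of the 4 group means to all 12 libraries. Contrasts were two-sided, adjusted by Benjamini-Hochberg over all tested genes, with a threshold of 0.05. The step was tested on simulated counts. Where every library of a group had 0 counts, a bound against 3 counts per library replaces the fold, and it covers only counting error. Pattern likeness used log2 CPM with a prior count of 2. Names followed a rule: every member, other complement genes that were tested and reached 1 CPM in a group, up to 4 called inducer genes per comparison with at least 5 CPM, and 3 similar genes per member; 1 gene that this rule names is not reported here. The members and the lists were chosen with earlier results of these data known. Alternatives were DESeq2 1.42.0, limma-voom, other scalings and filters, a replicate block, only the compared groups, and each library left out. Leaving out listed rows that the count filter kept through 1 compared group alone was chosen after seeing the data. Promoter sequences are those of RefSeq, build GRCr8.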

Additional observations from a re-analysis of the deposited data

How the results depend on the processing

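The counts of called genes, over all tested genes and over both lists, stayed within 1.5 times their values under each alternative setting and with each library left out. With the replicate number as a block, 10166 genes were called in GS against RCF instead of 10262, and 9135 in CMM against GS instead of 9256. Same-numbered libraries deviated from their group means with correlations of -0.107 to 0.138, and for 8 of 12 libraries the closest library of another group had the same number, a hint from the data and not from the design. The numbers were not used as pairs. Leaving out 1 library gave 7 to 10 called genes of the other complement list in ECCMM against CMM, 9 to 11 in ECCMM against GS, 12 to 14 in CMM against GS and 16 to 17 in GS against RCF.

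Of the members' recomputed fold changes, 644 moved by less than the spread between replicates, 18 moved by more and 1 turned round. The last was C1r in GS against RCF, at -0.02 with library totals alone, the scaling that put the median of all tested genes there at -0.13 instead of -0.03. The fitted fold of C7 in GS against RCF was -10.92 by limma-voom and -12.36 by DESeq2, since GS is at 0, and only the bound is reported. Among list genes, 2942 recomputed calls stayed on their side of the threshold, 82 were lost and 18 gained. Depth limits C2, Cfi and the C2 row described as factor B, with 60, 13 and 6 counts in CMM.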
